A study of Mus musculus with 4 samples.

Results

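The regions described here are stretches of open chromatin in the newborn mouse heart that lay close together and away from the ends of genes. Peaks of 4 ATAC-seq libraries, in which the Tn5 transposase cuts accessible DNA, were merged where they overlapped by 1 bp or more, which gave 53140 regions. Of these, 28087 were called in both wild-type libraries, and 17192 of those lay more than 1 kb from every protein-coding gene start and end. Neighbours among the 17192 distal regions were joined where the gap was 12.5 kb or less, and 780 regions (4.54% of the distal ones) fell into 129 clusters of 5 or more. The calls in the wild-type hearts therefore chose the members, and wild-type values are given below as a description.

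The study compared 2 edKO hearts with 2 WT hearts, each library from a single whole heart of a C57BL/6 mouse at postnatal day 0 (P0). In edKO mice the retinoid X receptor genes Rxra and Rxrb were deleted in cardiomyocytes. WT mice carried no deletion according to the labels, and the study concerned how the newborn heart's metabolism matures. The Cre driver, the litter and the sex of the mice were not given in the sources used here. Endothelial cells, fibroblasts and the other cells of the heart keep their receptors in such a model, and a whole heart mixes them with cardiomyocytes. In such bulk tissue, fewer cells of a type and less accessible chromatin per cell cannot be told apart.

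Distal open regions include enhancers, stretches of DNA that bind transcription factors and act on a promoter from a distance. Dense groups of enhancers, often called super-enhancers or stretch enhancers when they carry strong activity marks, are known to lie near genes that define a cell's identity, in heart muscle among others. The clusters here were defined by spacing alone, with no mark of activity. Retinoid X receptors bind DNA mostly as heterodimers with other nuclear receptors such as the PPARs, retinoic acid receptors and thyroid hormone receptors, at repeats of the half-site AGGTCA.

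Some of the 10 clusters with the most members held a RefSeq-annotated transcript start under a member, and 5 such genes are shown. Distance had been measured from the outermost ends of each gene, so such internal starts counted as distal. The sequences under these members are shown because they are the places where a cluster of distal regions met a possible promoter of its own gene. Mb encodes myoglobin, the oxygen store of muscle, and Nkx2-5 encodes a homeodomain factor needed for heart formation. Speg encodes a striated muscle kinase, Egfl7 a protein secreted by endothelial cells, and Ddr1 a collagen receptor. Each line gives the part of RefSeq's window of 250 bases before to 50 after the start that lay within the member, 5′ to 3′ on the gene's strand. Capitals mark matches to any of 7 searched motifs on either strand.
Mb, GRCm38.p6, chr15:77022678-77022963, minus strand: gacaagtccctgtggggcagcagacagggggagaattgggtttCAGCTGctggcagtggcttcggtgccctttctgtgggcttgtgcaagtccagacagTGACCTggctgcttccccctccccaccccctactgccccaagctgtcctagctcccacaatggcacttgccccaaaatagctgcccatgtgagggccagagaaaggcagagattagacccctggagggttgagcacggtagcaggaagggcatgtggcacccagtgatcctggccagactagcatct
Nkx2-5, GRCm38.p6, chr17:26841516-26841720, minus strand: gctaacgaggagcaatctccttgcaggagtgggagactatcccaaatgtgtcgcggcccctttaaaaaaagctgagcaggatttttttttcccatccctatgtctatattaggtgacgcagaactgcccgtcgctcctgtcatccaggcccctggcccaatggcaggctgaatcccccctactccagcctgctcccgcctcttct
Speg, GRCm38.p6, chr1:75399835-75400134, plus strand: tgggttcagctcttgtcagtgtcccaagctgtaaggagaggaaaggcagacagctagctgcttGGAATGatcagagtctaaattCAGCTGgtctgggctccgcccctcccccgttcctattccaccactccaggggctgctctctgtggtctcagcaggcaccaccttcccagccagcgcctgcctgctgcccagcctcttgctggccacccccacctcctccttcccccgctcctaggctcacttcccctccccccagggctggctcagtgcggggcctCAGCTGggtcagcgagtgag
Egfl7, GRCm38.p6, chr2:26583615-26583914, plus strand: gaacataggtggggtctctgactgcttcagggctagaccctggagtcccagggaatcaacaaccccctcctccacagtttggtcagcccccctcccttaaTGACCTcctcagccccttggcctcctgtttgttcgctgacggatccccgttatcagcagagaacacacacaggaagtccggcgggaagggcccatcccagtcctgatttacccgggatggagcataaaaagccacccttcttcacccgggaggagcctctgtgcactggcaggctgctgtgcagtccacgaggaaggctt
Ddr1, GRCm38.p6, chr17:35700541-35700840, minus strand: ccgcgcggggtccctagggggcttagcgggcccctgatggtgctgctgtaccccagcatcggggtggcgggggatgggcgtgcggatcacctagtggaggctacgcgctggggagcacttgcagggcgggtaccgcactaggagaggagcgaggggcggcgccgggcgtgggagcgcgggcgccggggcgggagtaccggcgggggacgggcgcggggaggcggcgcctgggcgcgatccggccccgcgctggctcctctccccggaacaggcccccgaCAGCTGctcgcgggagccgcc

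The motifs searched were AGATAA for GATA factors, TAAAAATA for MEF2, GGAATG for TEAD, TATAAA for the TATA box, AGGTCA for the nuclear receptor half-site, 1 form of the CArG box for SRF and CAGCTG for an E-box. The Mb window held TGACCT, which is AGGTCA on the other strand, and CAGCTG. The Egfl7 window held 1 match, also TGACCT. The Speg window held GGAATG and CAGCTG at 2 places, and the Ddr1 window held 1 CAGCTG. The Nkx2-5 window, 205 bases of the 300, held no match to these letters. In all, 60 RefSeq windows overlapped members. AGGTCA was present in 8 of these (13.3%), against 16.3% of all 32851 windows in the table. CAGCTG was present in 17 (28.3%), against 16.3%, and GGAATG in 12 (20%), against 14.7%. AGATAA was present in 2 (3.33%), against 11.2%, and TATAAA in 4 (6.67%), against 13.6%. TAAAAATA was present in 1 (1.67%), against 2.72%, and the CArG box in 0, against 0.0639%. The members cover only part of some windows, and a match describes the letters and no bound factor.

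The 129 clusters spanned 8887 to 66234 bp, with a median of 30975 bp, and their regions covered a median of 9.64% of the span. Gaps inside clusters had a median of 5698 bp, and the largest was 12476 bp, while the smallest gap not joined between distal neighbours was 12504 bp. Clusters of exactly 5 regions were the most common, with 67, and the largest held 11. Just under the limit, 187 groups of 4 regions were left out. A span overlapped a protein-coding gene for 98 clusters. For 30 others the nearest gene within 100 kb was used, and 1 cluster, on chromosome 11, had none. Of the members, 454 (58.2%) lay inside a gene body, against 58.7% of the other 16412 distal regions. Their median distance to the nearest gene end was 18001 bp, against 18798 bp. Members had slightly higher WT strength, defined as the mean percentile of a region's −log10 p within the 2 WT lists, with a median of 56.4, against 49.1 for the other distal regions. They also had a median width of 454.5 bp, against 416 bp.

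Most members were called again in edKO hearts, but unevenly. In edKO 1, 564 of the 780 members were called (72.3%, 95% Wilson interval 69.1 to 75.3), and in edKO 2, 476 (61.0%, 57.6 to 64.4). Of all regions called in both WT hearts, 75.5% were called in edKO 1 and 64.1% in edKO 2. Of all 17192 distal regions, 65.7% were called in edKO 1 and 49.1% in edKO 2. Both edKO hearts called 433 members (55.5%), set beside 59% of all regions and 42.7% of all distal regions. Neither edKO heart called 173 members (22.2%, 19.4 to 25.2), set beside 19.4% of all regions and 27.9% of all distal regions. A missing call means that a region's signal stayed under the authors' threshold for a peak in that heart, and does not show closed chromatin. The members' share in both edKO hearts was above the distal background and slightly below that of all regions, most of whose kept calls lie at gene ends. The intervals cover counting error only, and neighbouring regions of a heart are not replicates.

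Much of the difference from the other distal regions went with strength in WT. In edKO 1, the members exceeded the other distal regions by 6.89 percentage points (72.3% against 65.4%), and by 0.312 points once the other regions were weighted to the members' strength over 5 bins. In edKO 2, the difference was 12.5 points (61.0% against 48.5%), and 5.32 points after the same weighting. For regions called in neither heart the difference was -5.98 points, and -0.403 points after weighting. In the weakest bin, edKO 1 called 29.3% of 99 members, against 31.4% of other distal regions, and edKO 2 called 29.3%, against 19.7%. In the strongest bin, edKO 1 called 96.9% of 223 members, against 98.0%, and edKO 2 called 95.5%, against 93.3%. With 2 libraries per group and regions sharing their heart, none of these differences was given a test.

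**Figure D1:**
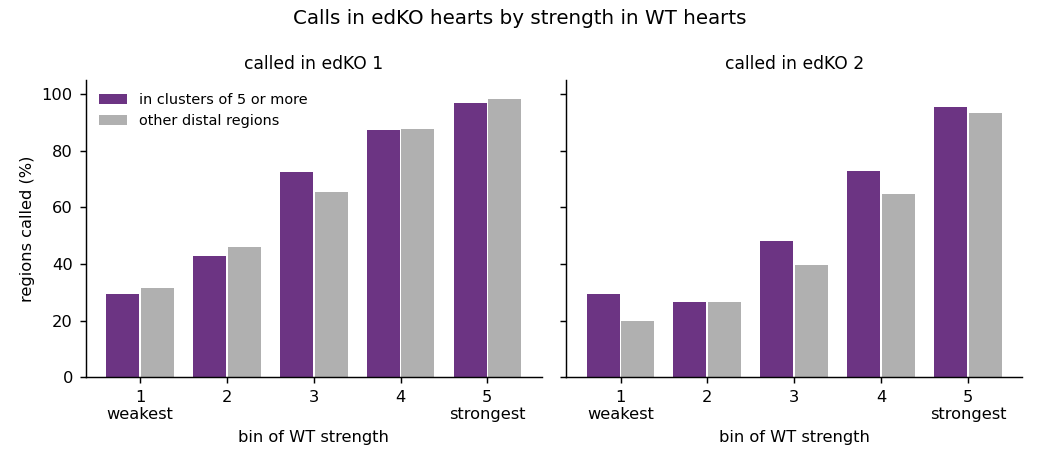
Share of regions called in edKO 1 and edKO 2 (y axis, percent) for members of clusters of 5 or more and for the other distal regions, in 5 bins of strength in WT hearts (x axis). Members were at 29.3% in the weakest bin of both panels, and at 96.9% (edKO 1) and 95.5% (edKO 2) in the strongest. In edKO 2 they dip to 26.6% in bin 2, while the other regions rise from bin to bin in both panels.

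Within a cluster, the loss of calls was concentrated at its weaker members. The strongest member in WT was called in both edKO hearts in 113 of 129 clusters (87.6%) and in neither in 5. The weakest member was called in both in 23 clusters (17.8%) and in neither in 70 (54.3%). Other distal regions had a like gradient, with 9.42% of the weakest bin of WT strength called in both and 92.9% of the strongest. Neither edKO heart called 58.3% and 1.59% of them. Members called in both edKO hearts had a median WT strength of 71.1, those called in 1 had 44.5, and those called in neither 34.8. The 258 members at the edge of a cluster were called in both edKO hearts in 51.9% of cases, against 57.3% of the 522 inside it, at like median strengths of 56.9 and 56.3. Neighbouring members shared their state in edKO 1 in 64.4% of pairs and in edKO 2 in 55.8%, where the overall shares of calls alone give 60.0% and 52.4%. Of the 129 clusters, 8 (6.20%) had every member called in both edKO hearts, and 102 (79.1%) had at least 1 member called in neither.

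Where all 4 hearts called a member, the position of its summit was alike. Over these 433 members the median distance between summits was 32 bp for edKO 1 against WT 1, 40 bp for edKO 2 against WT 1, and 31 bp between the WT hearts. The authors' fold enrichment at the summit had a median of 5.87 in edKO 1 and 4.21 in edKO 2, against 5.57 in WT 1 and 6.21 in WT 2. The value of edKO 2 lay below the other 3 libraries, and edKO 1 lay between the WT hearts. Over the 10000 strongest peaks of each library, wherever they lay, the median fold was also lowest in edKO 2, at 7.61, with 10.2 in edKO 1, 10.8 in WT 1 and 11.5 in WT 2. The libraries held 27473 and 27142 peaks in edKO hearts, against 35279 and 38809 in WT hearts. Over the 433 members the −log10 p had a median of 16.1 in edKO 1 and 11 in edKO 2, against 21.4 in WT 1 and 25.7 in WT 2. Both edKO values lay below both WT values at 292 of the 433 members (67.4%), set beside 74.7% of all regions called in all 4 hearts and 70% of such distal regions. Both lay above at 3 members (0.693%), set beside 0.761% and 0.885%. With each value replaced by its percentile within its library, both edKO values were the lower ones at 45.5% of members, 49.1% of all such regions and 50.4% of distal ones. Lower −log10 p without overlap was therefore the usual order among regions called in every heart. The part of peak strength in the missing calls was not tested.

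The labelled tissue was checked at gene ends. All 6 cardiomyocyte genes tested, among them Tnnt2 and Myh6, had a peak at a gene end in all 4 hearts. Of 6 endothelial genes, 3 had one in each edKO heart, against 2 and 3 in the WT hearts, with Pecam1, Tek and Egfl7 lacking one in all 4. Of 6 fibroblast genes, 2 had one in each edKO heart, against 4 in each WT heart, and of 6 smooth muscle genes 3 and 2 had one in edKO hearts, against 4 and 4. Of 4 immune genes, 0 had one in each edKO heart, against 1 in each WT heart. All 4 hearts had one at 3 of 4 epicardial genes. Erythroid genes had 0 and 0 of 4 in edKO hearts, against 0 and 1 in WT hearts, and neuronal genes 1 and 1 of 4, against 0 and 1. How far the cell mixture bears on the missing calls was not tested. No cluster lay at the deleted genes, where the nearest member was 457891 bp from Rxra and 1659553 bp from Rxrb.

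**Figure D2:**
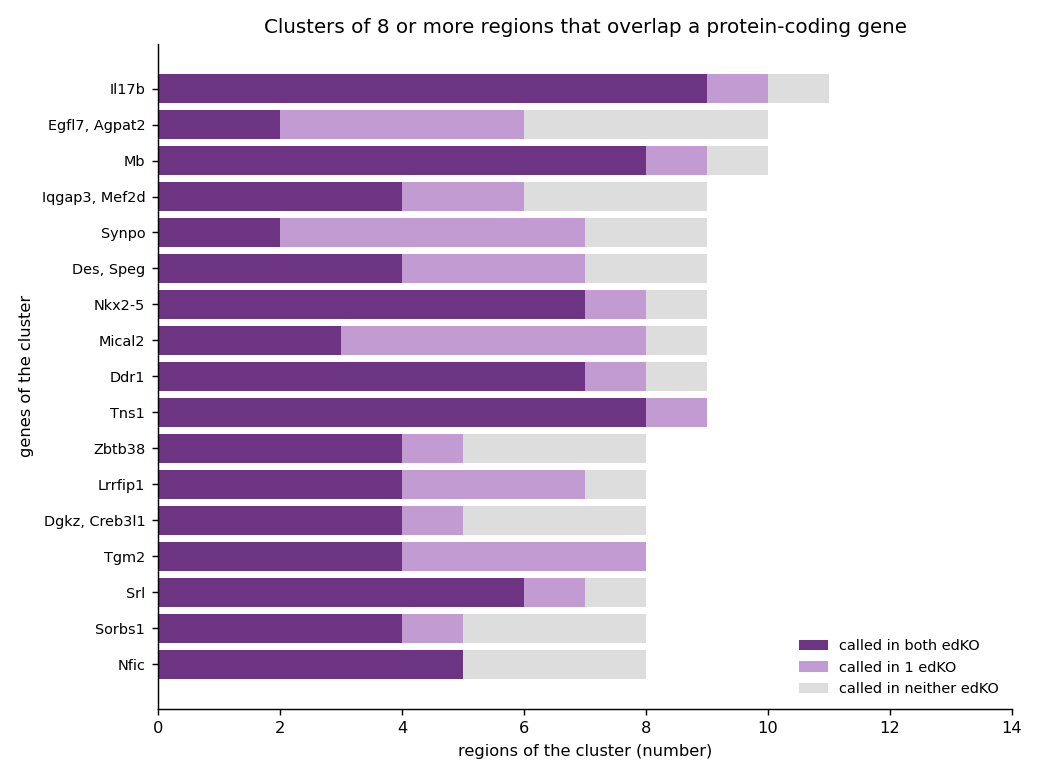
Clusters with 8 or more regions whose span overlaps a protein-coding gene, named by those genes (y axis), with the number of regions called in both edKO hearts, in 1 and in neither (x axis). Tns1 and Il17b keep most regions in both, at 8 of 9 and 9 of 11, while Egfl7 with Agpat2 and Synpo keep 2 of 10 and 2 of 9.

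The clusters at genes of transcriptional control in the heart differed in how many calls were kept. Genes with a cluster over or next to them made up 0.661% of the 21631 protein-coding genes (143), and 4 of 42 listed cardiac regulators were among them, namely Nkx2-5, Mef2d, Irx4 and Rbfox2. Together their clusters held 31 members, of which 16 (51.6%) were called in both edKO hearts and 7 (22.6%) in neither. These shares were close to the 55.5% and 22.2% of all members. The Nkx2-5 cluster (chr17:26841177-26893007) kept 7 of 9 members in both edKO hearts. Its first member, which carries the start shown above, had −log10 p values of 51.0 and 30.7 in edKO hearts, against 76.8 and 96.6 in WT hearts. It was the strongest member of its cluster in all 4 hearts. Its edKO values lay below its WT values, as at 67.4% of members called in every heart. The cluster's 1 member called in neither edKO heart was also its weakest, at 5.83 and 5.64 in WT hearts.

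At Mef2d, which encodes a MADS-box factor of muscle genes, the cluster (chr3:88114286-88178330) also overlapped Iqgap3 and kept 4 of 9 members in both edKO hearts. Its last member, 5366 bp beyond the end of Mef2d, stood far above the others, at 66.6 and 39.1 in edKO hearts, against 87.3 and 95 in WT hearts. A member within the Mef2d gene (chr3:88149237-88149639) was called in neither edKO heart although it had 18 and 26.8 in WT hearts. This was the second strongest member of the cluster by WT strength. In the bin of WT strength that holds it, neither edKO heart called 10.2% of members and 8.77% of other distal regions. The cluster nearest to Rbfox2, which encodes a splicing regulator and not a transcription factor, kept 3 of 8 members, and edKO 2 called only 3 of them. Some members of that cluster lay nearer to Apol7a. In the cluster nearest to Irx4, a ventricular homeobox gene, 2 of 5 members were called in both. The strongest had 39.8 and 30.5 in edKO hearts, against 60.9 and 78.8 in WT hearts. Its own nearest gene end was that of Ndufs6, at 20612 bp.

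**Figure D3:**
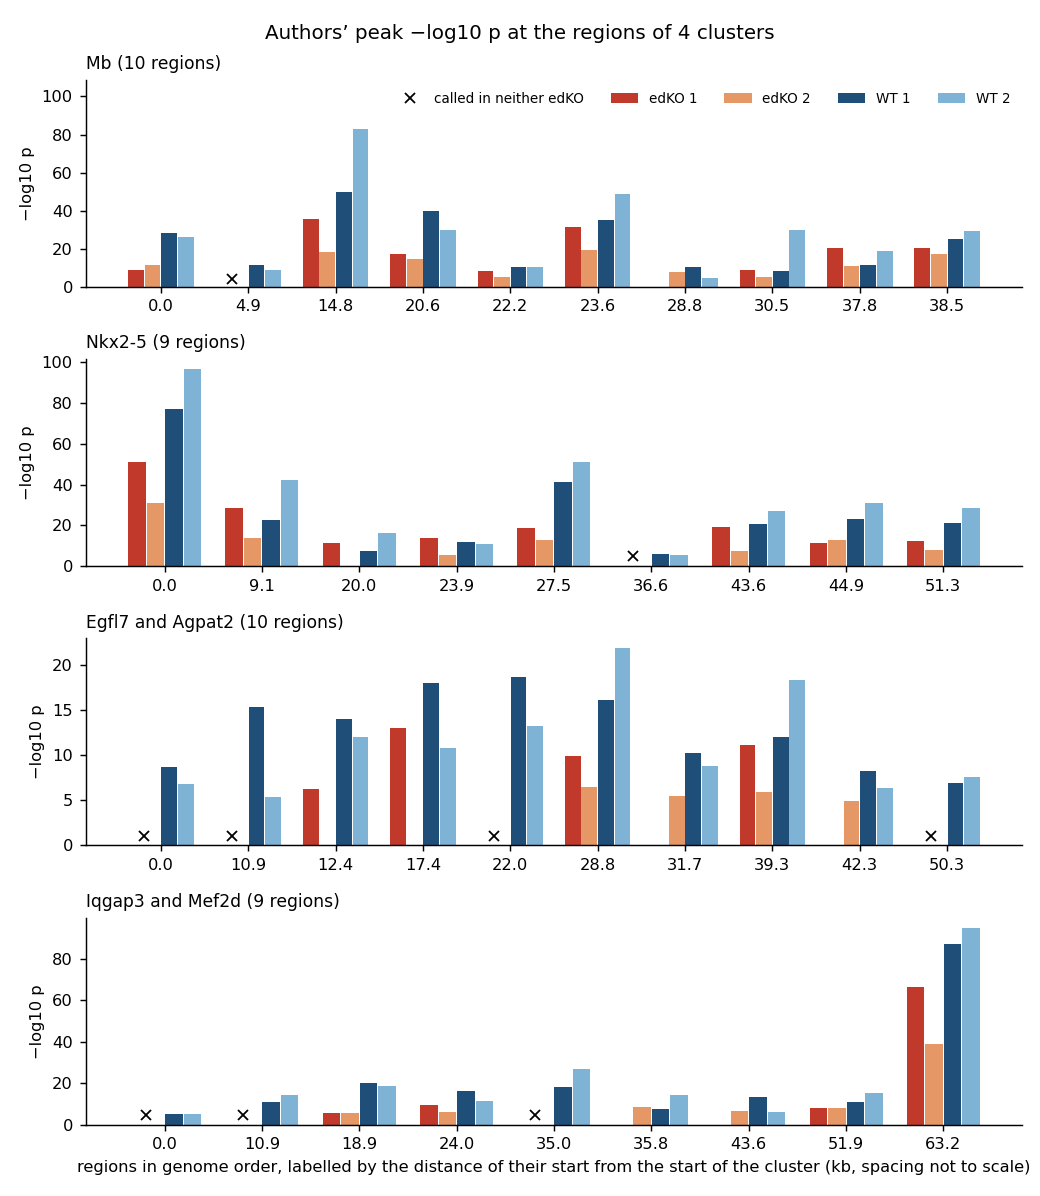
The authors' peak −log10 p (y axis) at each region of the clusters at Mb, Nkx2-5, Egfl7 with Agpat2, and Iqgap3 with Mef2d, in edKO 1, edKO 2, WT 1 and WT 2; regions are in genome order and crosses mark those called in neither edKO heart. Mb and Nkx2-5 each lack 1 region in both edKO hearts, the Egfl7 cluster lacks 4 and the Mef2d cluster 3.

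At genes of the contractile apparatus and oxygen supply of muscle, the strongest members at Mb, Speg and Ldb3 were called in both edKO hearts. The same held for the strongest member in 87.6% of all 129 clusters. The strongest member at Tpm1 was not called in both. The Mb cluster (chr15:76998859-77038223) kept 8 of 10 members. Its member at the annotated start had 31.3 and 19.4 in edKO hearts, against 35.2 and 48.7 in WT hearts, and its strongest member had 35.8 and 18.1, against 49.9 and 82.9. Each edKO value lay below each WT value at both, the order found at 67.4% of members called in every heart. Of 35 listed sarcomere genes, 3 had a cluster (Des, Ldb3 and Tpm1), with 19 members in all. Of these, 8 (42.1%) were called in both edKO hearts and 3 (15.8%) in neither, set beside 55.5% and 22.2% of all members. Des encodes the muscle intermediate filament desmin, Ldb3 a Z-disc protein and Tpm1 a tropomyosin of the thin filament.

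The cluster shared by Des and Speg (chr1:75347287-75400702) divided by gene. Of its 5 members nearest to Des, none was called in both edKO hearts, while all 4 nearest to Speg were. The member at the Speg start shown above had 61.4 and 42.8 in edKO hearts, against 62.2 and 89.1 in WT hearts, so edKO 1 was close to WT 1. The 5 members nearest to Des were weak in WT, at 5.72 to 13.6 in WT 1, and the 2 strongest of the cluster lay at Speg. The weakest member in WT 1, at 4.81, also lay at Speg and was called in both edKO hearts. The part of strength in this division was not tested. This division was picked out after the values were seen. The Ldb3 cluster kept 3 of 5 members in both edKO hearts and had none called in neither, and the Tpm1 cluster kept 1 of 5, with its strongest member called in edKO 1 only. At Srl, which encodes the sarcoplasmic reticulum protein sarcalumenin, 6 of 8 members were kept.

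The cytoskeletal genes with large clusters stood at both ends of the range. Tns1, which encodes a focal adhesion protein, kept 8 of 9 members in both edKO hearts, and the ninth was called in edKO 1. One Tns1 member (chr1:74007594-74008365) had 57.4 and 38.6 in edKO hearts, against 40.7 and 20.2 in WT hearts. Here edKO 1 was the highest of the 4 hearts. Synpo, which encodes an actin-associated protein, kept 2 of 9 members in both, although edKO 1 called 7, against 2 in edKO 2. Mical2, which encodes an actin-oxidising enzyme, kept 3 of 9 in both, with 7 called in edKO 1 and 4 in edKO 2. In both clusters the edKO hearts differed from each other. Over all 129 clusters, edKO 1 called more members than edKO 2 in 72, fewer in 12 and as many in 45.

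Of 30 listed genes of calcium handling and ion transport, 3 had a cluster (Jph2, Kcnh2 and Nppb), with 16 members. Of these, 10 (62.5%) were called in both edKO hearts and 3 (18.8%) in neither, set beside 55.5% and 22.2% of all members. Nppb itself encodes the B-type natriuretic peptide, a stretch-induced hormone. Its cluster lay 5742 bp from the gene, and 4 of 5 members were called in both edKO hearts. The member nearest to Nppb had 42.0 and 28.1 in edKO hearts, against 58.6 and 43.5 in WT hearts. In Kcnh2, a potassium channel gene, the strongest member had 27.5 and 28.7 in edKO hearts, against 56.1 and 84.7 in WT hearts. In Jph2, which encodes a protein that holds the sarcoplasmic reticulum to the plasma membrane, the strongest had 48.5 and 24.1, against 31.7 and 53.3. The edKO values were below the WT values at Nppb and Kcnh2, as at 67.4% of members called in every heart. They overlapped the WT values at Jph2.

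Among genes of fatty acid use, 2 of 38 listed had a cluster, namely Fabp3 and Ppara, with 10 members. Of these, 6 (60%) were called in both edKO hearts and 0 in neither, set beside 55.5% and 22.2% of all members. Fabp3 encodes the fatty acid binding protein of heart muscle. One member of its cluster (chr4:130298861-130299755, 8983 bp from Fabp3) was not called in edKO 1 and had a −log10 p of 8.15 in edKO 2, against 55.9 and 71.4 in WT hearts. The authors' fold enrichment there was 3.95 in edKO 2, against 8.02 and 9.65 in WT hearts. With a WT strength of 89.5 it was the strongest of the 174 members called in a single edKO heart. The other 4 Fabp3 members had lower values in WT, at 6.97 to 26.9 in WT 1, and 2 of them were called in both edKO hearts.

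Nuclear receptor genes with a cluster were Ppara and Nr1d1, 2 of 34 listed. Of their 11 members, 10 (90.9%) were called in both edKO hearts and 0 in neither, set beside 55.5% and 22.2% of all members. Both clusters were strong in WT, with a median strength of 74.6 for Ppara and 80.1 for Nr1d1. In the strongest bin of WT strength, which holds these medians, 94.6% of members and 92.9% of other distal regions were called in both. The cluster given to Ppara, which encodes a receptor for fatty acids that binds DNA with RXR, lay 47511 bp away. Its 4 strongest members were called in all 4 hearts. At Nr1d1, which encodes the clock repressor REV-ERBα, all 6 members of the cluster it shares with Msl1 were kept. The strongest there had 66.2 and 40.6 in edKO hearts, against 54.6 and 67.2 in WT hearts, so the groups overlapped. Of 28 listed PPAR and RXR target genes, 1 had a cluster, Txnip, which encodes an inhibitor of thioredoxin that also lowers glucose uptake. In that cluster, which it shares with Polr3gl, 1 of 5 members was called in both edKO hearts and 3 in neither. The strongest of these 3 had 31.0 and 15.9 in WT hearts. It lay outside gene bodies, and the nearest gene end was that of Polr3gl, at 1866 bp. Of 37 listed signalling genes, Pdgfa alone had a cluster, with 2 of 5 members kept in both and 1 in neither.

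Vascular and noncoding genes also lay in large clusters. Of 23 listed endothelial genes, 2 had one, Egfl7 and Eng (endoglin), with 15 members. Of these, 6 (40%) were called in both edKO hearts and 4 (26.7%) in neither, set beside 55.5% and 22.2% of all members. The Egfl7 cluster (chr2:26544296-26595280) kept 2 of 10, the lowest share of any cluster of 8 or more. It was also weak in WT hearts, with no member above 18.6 in WT 1 or 21.8 in WT 2. Its member at the annotated start shown above had 11.1 and 5.95 in edKO hearts, against 12 and 18.3 in WT hearts. One upstream member (chr2:26566256-26566559) had 18.6 and 13.2 in WT hearts and was called in neither edKO heart. The Eng cluster, shared with Ak1, had 4 of 5 members called in both. The receptors were deleted in cardiomyocytes, and which cells of the whole heart held these regions open was not tested.

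The Egfl7 span also held the microRNA genes Mir126a and Mir126b. The mature miR-126a-3p, an endothelial microRNA processed from an Egfl7 intron, lay 3197 bp from the nearest member at chr2:26591402-26591423 on the plus strand. In addition, both arms of miR-7687 lay inside a member of a cluster of 7 at Gse1, at chr8:120538696-120538720 and chr8:120538734-120538754 on the plus strand. No other mature microRNA of the RefSeq table used here lay within a member. The sequences, from RefSeq on GRCm38.p6, are given 5′ to 3′ with the seed, bases 2 to 8, in capitals, and the 3 seeds differ.
mmu-miR-126a-3p: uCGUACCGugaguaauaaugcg
mmu-miR-7687-5p: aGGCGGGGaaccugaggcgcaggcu
mmu-miR-7687-3p: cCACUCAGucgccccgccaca

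The largest cluster, with 11 members (chr18:61628033-61694266), overlapped Il17b and held the noncoding genes Carmn, Bvht, Mir143 and Mir145a. Carmn and Bvht are long noncoding RNAs known from cardiac and smooth muscle development, and miR-143 and miR-145 are abundant in smooth muscle. Of its members, 9 were called in both edKO hearts and 1 in neither. The strongest had 26.5 and 15.4 in edKO hearts, against 47.9 and 74.5 in WT hearts. This order held at 67.4% of members called in every heart. Ddr1 kept 7 of 9 members in both.

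Some clusters lay at the extremes of calling. Kdm6b, which encodes an H3K27 demethylase, kept all 7 members, the most of the 8 clusters fully called in both edKO hearts. The others lay at Arhgap23, Nr1d1 with Msl1, Plec, Mreg, Ldb1, Actn4 and Tex44, and Actn4 and Plec encode cytoskeletal linker proteins. At the other end, none of the 5 members at Rmc1 and Npc1 was called in either edKO heart. Npc1 encodes the cholesterol exporter of lysosomes. The strongest of these members had 32.7 and 24.4 in WT hearts, and the other 4 had 6.00 to 10.7 in WT 1. At Ell, which encodes a transcription elongation factor, no member was called in both. Among housekeeping genes, 1 of 23 had a cluster, Actb at 12727 bp, and 4 of its 7 members were called in neither edKO heart. Both clusters were weak in WT, with a median strength of 36.0 at Ell and 36.9 at Actb. In the bin that holds these medians, 16.4% of members and 16.7% of other distal regions were called in both edKO hearts. The shares called in neither were 46.9% and 44.0%. Listed genes of fibroblasts (16), smooth muscle (12), epicardium (7), immune cells (10), erythroid cells (9) and neurons (10) had no cluster, and at the background of 0.661% lists so short would hold fewer than 1.

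The 5 members with the highest WT strength were called in every heart. Near Chd2, which encodes a chromatin remodeller, a member (chr7:73595056-73595606) had 114 and 81.2 in edKO hearts, against 131 and 202 in WT hearts. Another in the same cluster had 101 and 82.6, against 109 and 108. At Slc25a4, the adenine nucleotide exchanger of heart mitochondria, a member (chr8:46216795-46217290) had 50.2 and 40.6 in edKO hearts, against 114 and 112 in WT hearts. At Itga2b, a platelet integrin gene, the values were 96.6 and 66.3, against 88.4 and 142, and near Tex44 they were 68.8 and 43.4, against 98.7 and 107. The edKO and WT values overlapped at Itga2b. At the other 4 the edKO values were lower, which was so at 74.7% of all regions called in every heart, and these members were picked for their high WT values.

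The strongest members called in neither edKO heart were few. In the strongest bin of WT strength, 94.6% of members and 92.9% of other distal regions were called in both edKO hearts. The shares called in neither were 2.24% and 1.59%. Of 171 members with WT strength above 75, 165 were called in both edKO hearts and 3 in neither. The first was near Impa2 (chr18:67279119-67279643), with 36.8 and 49.2 in WT hearts. The second lay in the Trim63 cluster (chr4:134300247-134300743), with 22.6 and 37.6, and its nearest gene end was that of Pdik1l, at 12401 bp. Trim63 encodes MuRF1, a muscle ubiquitin ligase. The third was the member at Rmc1 and Npc1 given above. They were followed by members at Tmem104 (chr11:115229418-115229964), with 26.2 and 27.3, and Ptp4a3 (chr15:73738063-73738651), with 26.7 and 25.6. At Impa2, 4 of the 5 members were called in neither.

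Members over an annotated start were called in both edKO hearts more often than the other members. RefSeq start windows overlapped 51 members (6.54%), against 1510 of the other distal regions (9.2%). Of these 51, 46 (90.2%) were called in both edKO hearts and 3 in neither, against 53.1% called in both among the other members. They were also stronger in WT, at a median of 75.6 against 55.0. Gene-end regions, set aside by the distance rule, were called in edKO 1 in 90.9% of cases and in both edKO hearts in 84.7%.

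Because WT calls chose the members, the choice was repeated with other libraries held out. When WT 1 alone chose clusters, 247 resulted with 1492 members, of which 61.9% were called in edKO 1 and 49.6% in edKO 2, against 82.0% in WT 2. When WT 2 alone chose, 399 clusters held 2498 members, of which 55.2% were called in edKO 1 and 43.1% in edKO 2, against 70.8% in WT 1. The held-out WT heart thus called more members than either edKO heart both times, by 26.3 and 21.7 points over the edKO mean. The other distal regions of those choices gave 52.8% in edKO 1 and 38.8% in edKO 2, against 75.1% in WT 2, and 48.3% and 35.3%, against 66.1% in WT 1. The order of the libraries was therefore the same inside and outside clusters. Where both edKO hearts chose, only 24 clusters with 141 members were formed, WT 1 and WT 2 each called 97.9% of them, and 23 of the 24 overlapped the 129. The other distal regions of that choice gave 94.2% in WT 1 and 95.3% in WT 2, close to the members.

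Fewer clusters formed in edKO hearts when the same spacing was applied to each library's own distal peaks. There were 118 in edKO 1 and 91 in edKO 2, against 269 in WT 1 and 411 in WT 2. The means were 104.5 ± 19.1 in edKO hearts and 340 ± 100 in WT hearts (SD, n = 2 each), a ratio of 0.307. The groups did not overlap, and p was 0.333 in a two-sided exact permutation test over hearts, the lowest value possible with 2 against 2. In edKO hearts 4.30% and 3.44% of distal peaks lay in such clusters, against 7.04% and 9.92% in WT hearts, a difference of -4.61 points (exact permutation p = 0.333). Clusters form more readily in longer lists, and edKO lists held 16316 and 15701 distal peaks, against 23169 and 26210. With every list cut to the same number of its strongest peaks, there were 116 and 91 clusters in edKO hearts, against 126 and 136 in WT hearts, a ratio of 0.790. The groups still did not overlap, and most of the difference in number was gone at equal length. The cut equalised all peaks and not distal ones. The cut lists held 16028 and 15701 distal peaks in edKO hearts, against 16420 and 16395 in WT hearts. The part of these shorter distal lists in the remaining difference was not tested.

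**Figure D4:**
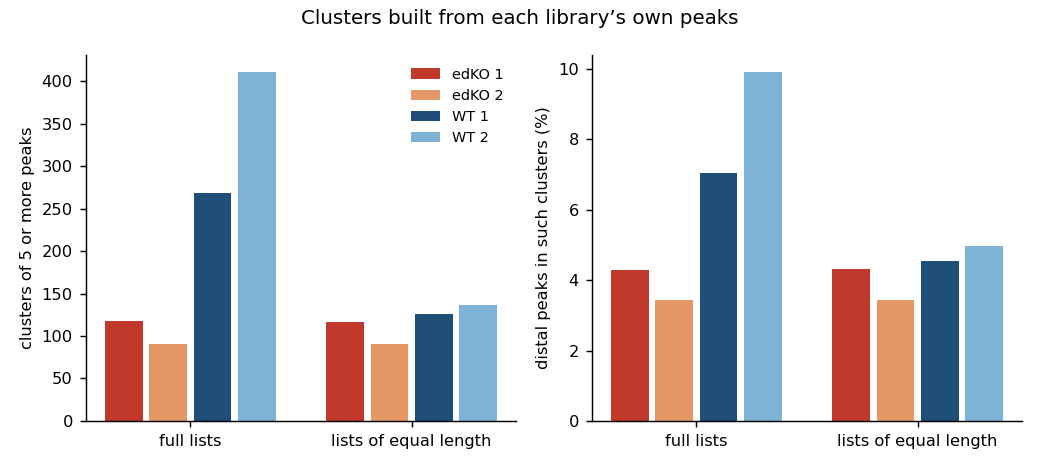
Number of clusters of 5 or more distal peaks (left, y axis) and share of distal peaks that lie in them (right, y axis, percent), built from each heart's own peaks, with the full lists and with lists of equal length. Each bar is 1 heart; the full lists give 118 and 91 clusters in edKO hearts, against 269 and 411 in WT hearts.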

How the data were processed

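ATAC-seq was measured in 2 edKO and 2 WT hearts, 1 heart per library. Per the submitters' processing notes, CASAVA, bcl2fastq, cutadapt, Bowtie2, SAMtools and MACS2 were used with mm10 (GRCm38). Versions, thresholds, duplicate removal and any Tn5 shift were not given in the sources used here. The deposited peak lists, 1 per library, hold the authors' fold enrichment (a ratio), −log10 p and −log10 q at each summit, and a score. Reads behind a peak are unknown, and −log10 p depends on depth. WT strength is therefore a rank within each library, and −log10 p values of different libraries are given side by side with no test, beside the share of all regions with the same order.

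Peaks on chromosomes 1 to 19 and X were merged (1 bp overlap) and joined across gaps of up to 12500 bp, in Python 3.11.15 with pandas 2.3.3, NumPy 2.4.6, SciPy 1.17.1 and matplotlib 3.10.9. Gene ends are the outermost ends of 21631 protein-coding genes in RefSeq's GRCm38.p6 table. The chaining was tested on simulated positions. Values per library were compared by exact permutation over libraries. Named genes were those of the 10 largest clusters except 1 that is not reported here, the 6 highest and 6 lowest in edKO calls among clusters of 8 or more, up to 3 per gene list, and the 5 strongest members and 5 strongest called in neither edKO heart. Other genes named, such as Irx4, Kdm6b, Ell and the Fabp3 region, were chosen after their values were seen. The members and gene lists were chosen with earlier results of these data known. Alternatives were other gaps, cluster sizes, overlap rules, list lengths and single libraries.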

Additional observations from a re-analysis of the deposited data

How the results depend on the processing

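The spacing sets how many clusters there are, and no alternative turned a direction round. A gap of at most 5 kb gave 9 clusters with 47 members, of which 68.1% were called in both edKO hearts, 25.5 points above the other distal regions. A gap of at most 25 kb gave 454 clusters with 3014 members, and a difference of 9.05 points. Asking for 4 or more regions gave 316 clusters with 1528 members, and 8 or more gave 20 with 176. Where a library's peaks had to cover at least 50% of a region, 47.2% of members were called in both edKO hearts. With lists of equal length there were 66 clusters with 379 members, of which 66.2% were called in both edKO hearts and 14% in neither.

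Leaving out each WT heart in turn gave 247 to 399 clusters and 1492 to 2498 members. Leaving out each of the 4 hearts, the share called in every edKO heart left ranged from 36.9% to 72.3%, the share called in none from 27.7% to 39%, and the difference from the other distal regions from 6.89 to 12.5 points. The edKO minus WT difference in clusters from each heart's own peaks ranged from -306.5 to -164.5, and that in the share of distal peaks from -6.05 to -3.18 points. The cause of these shifts was not tested, beyond the fewer hearts whose calls were required.

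Replicate numbers 1 and 2 are shared between the groups, but nothing in the labels ties an edKO heart to a WT heart. With the replicate block the differences were -235.5 clusters and -4.61 points, each with an exact sign-flip p of 0.5, the smallest that 2 pairs allow. Of all alternative values, 28 moved, given above with those that leave out a heart as ranges, and 53 were counted as unchanged. For clusters from each heart's own peaks, in number and in share, only the direction was judged. Their difference in number ranged from -601 with gaps up to 25 kb to -21.5 with gaps up to 5 kb. It was -27.5 with lists of equal length. The rest of the 53 lay near the reported value. The 53 include those with a distance of over 2.5 kb from gene ends and a −log10 p of at least 5 for every peak.

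The depth behind each peak is unknown, edKO 2 had the lowest fold enrichment, and 2 hearts per group allow no exact p below 0.333. Calls are set by a threshold, so a region just under it in an edKO heart counts as missing.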
